A study of Mus musculus with 9 samples.

Results

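*Tnfaip2* and the genes of the exocyst family were examined in RNA sequencing libraries of differentiating mouse embryoid bodies, to ask whether a relative of *Tnfaip2* was raised where *Tnfaip2* had been disrupted. The genes were chosen by name and matched to the Ensembl IDs of the counts table. Of 55471 gene IDs in the table, 13 were taken. They were *Tnfaip2*, the 8 subunit genes *Exoc1* to *Exoc8*, *Exoc6b* (a second copy of the *Exoc6* gene) and the Exoc3-like genes *Exoc3l*, *Exoc3l2* and *Exoc3l4*.

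Embryoid bodies, the aggregates that embryonic stem (ES) cells form as they begin to differentiate, were sequenced in 3 groups of 3 libraries. WT embryoid bodies came from the parental E14 ES cell line, and KO embryoid bodies from 1 clone of that line in which CRISPR/Cas9 had introduced a frameshift in *Tnfaip2*. KO_PAPC embryoid bodies came from the KO cells and were cultured with palmitic acid and palmitoyl-L-carnitine, a fatty acid and its carnitine ester, at 8 μM each. By the study's methods both were present while the bodies formed, for 3 days, and during differentiation. The methods name fibroblast medium for that formation, but ES cell medium for bodies without the fatty acids. Effects of the fatty acids and of that medium cannot be told apart. A figure legend of the study gives its untreated KO bodies a vehicle control. All groups had undergone 3 days of in vitro differentiation. With a single clone, effects of the disruption and other differences between that clone and its parental line cannot be told apart, and WT embryoid bodies with the fatty acids were not analysed here. The labels do not tie replicates to separate cultures. The study's text calls them biological replicates, and those of KO and KO_PAPC independent pools of embryoid bodies.

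Total counts lay between 27362913 and 28914312 per library. ES cell markers were high in every library (the sum over *Pou5f1*, *Nanog*, *Sox2*, *Zfp42* and *Dppa5a* was 2384 to 2398 CPM in WT libraries, 3687 to 3695 in KO libraries and 2566 to 2643 in KO_PAPC libraries), and the germ layer markers *Sox1*, *T*, *Sox17* and *Gata4* summed to 109 to 118, 42.2 to 45.4 and 150 to 151 CPM in the same order. The size factors of the KO_PAPC libraries, 0.916 to 0.923, were below the 1.04 to 1.05 of the others. Values are given as CPM, counts scaled with TMM size factors, which edgeR sets from the bulk of genes, and scaling by library totals instead moved the median of all genes by -0.17 (log2) in both comparisons with KO_PAPC. Changes are therefore relative to the bulk of genes, and those that this shift undoes are named. In bulk samples, fewer cells that express a gene and less RNA of it per cell cannot be told apart.

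The exocyst is a complex of 8 different subunits that holds a secretory vesicle at the plasma membrane before SNARE proteins fuse the membranes. Its subunits form a pair of four-membered modules, *Exoc1* to *Exoc4* and *Exoc5* to *Exoc8*, and Ral and Rab GTPases recruit it to vesicles and membrane. *Tnfaip2*, a target of TNF and NF-κB signalling, is related to *Exoc3* by gene duplication, as are the Exoc3-like genes, and its protein, M-Sec, is known for inducing tunnelling nanotubes, thin membrane bridges between cells.

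The study's guide RNA matched a single place in the annotated transcripts of *Tnfaip2* and no transcript of another gene. It lay on the plus strand at chr12:111445173-111445192 (GRCm38), in exon 2 of 12, and Cas9 would cut it within codon 82 of 691. The site is shown because the counts of *Tnfaip2* in KO libraries are read against it. It is printed with 12 bases on either side, taken from the GENCODE transcript, and the capitals mark the PAM.
Tnfaip2 guide site: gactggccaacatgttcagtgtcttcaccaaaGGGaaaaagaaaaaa

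The genes moved in both directions in every comparison, and their share called exceeded that of the table only between KO_PAPC and KO. That excess did not hold in every fit, as scaling by library totals called 9 of 12 there and DESeq2 11 of 13. Genes with an adjusted p under 0.05 in edgeR's quasi-likelihood test on the 6 libraries of a comparison were called. Of the 13 genes, 12 had enough counts to be tested in each. In KO against WT, 8 of the 12 passed, 4 higher and 4 lower, a share of 66.7%. The table as a whole had 73.8% of its 17355 tested genes called, with 36.8% higher and 37.1% lower, so the share of the 12 genes lay below that of the table. From KO to KO_PAPC all 12 tested genes were called, split into 6 higher and 6 lower, where the table had 81.8% of 17167 genes called (39.6% higher and 42.2% lower). *Tnfaip2*, among the 12, had enough counts in both comparisons with KO_PAPC only through the KO_PAPC libraries. Against WT, 8 of 12 passed in KO_PAPC, with 3 higher and 5 lower, beside 70.6% of 16655 genes (34.2% higher and 36.4% lower). The median log2 fold changes of the 12 genes were 0.075, -0.072 and -0.109 in the same order, beside -0.006, -0.017 and -0.017 over all tested genes.

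Most of these changes were small. Against a tested minimum fold change of 1.5, none of the genes was called in KO against WT, where 21.0% of all tested genes were. Without a minimum, edgeR called the 8 genes given above and DESeq2 7 in that comparison, and 8 had an unadjusted p under 0.05. In KO_PAPC against KO 4 genes passed the minimum (*Tnfaip2*, *Exoc3l2*, *Exoc4* and *Exoc6b*), beside 37.8% of all genes, and in KO_PAPC against WT 1 did (*Exoc6b*), beside 17.7%. Under scaling by library totals the KO_PAPC comparisons leaned further down, with 3 of these genes called higher and 6 lower against KO, and 1 higher and 9 lower against WT. Over all genes the higher calls then made up 38.0% and 30.2% of calls in place of 48.4% in both.

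**Figure D1:**
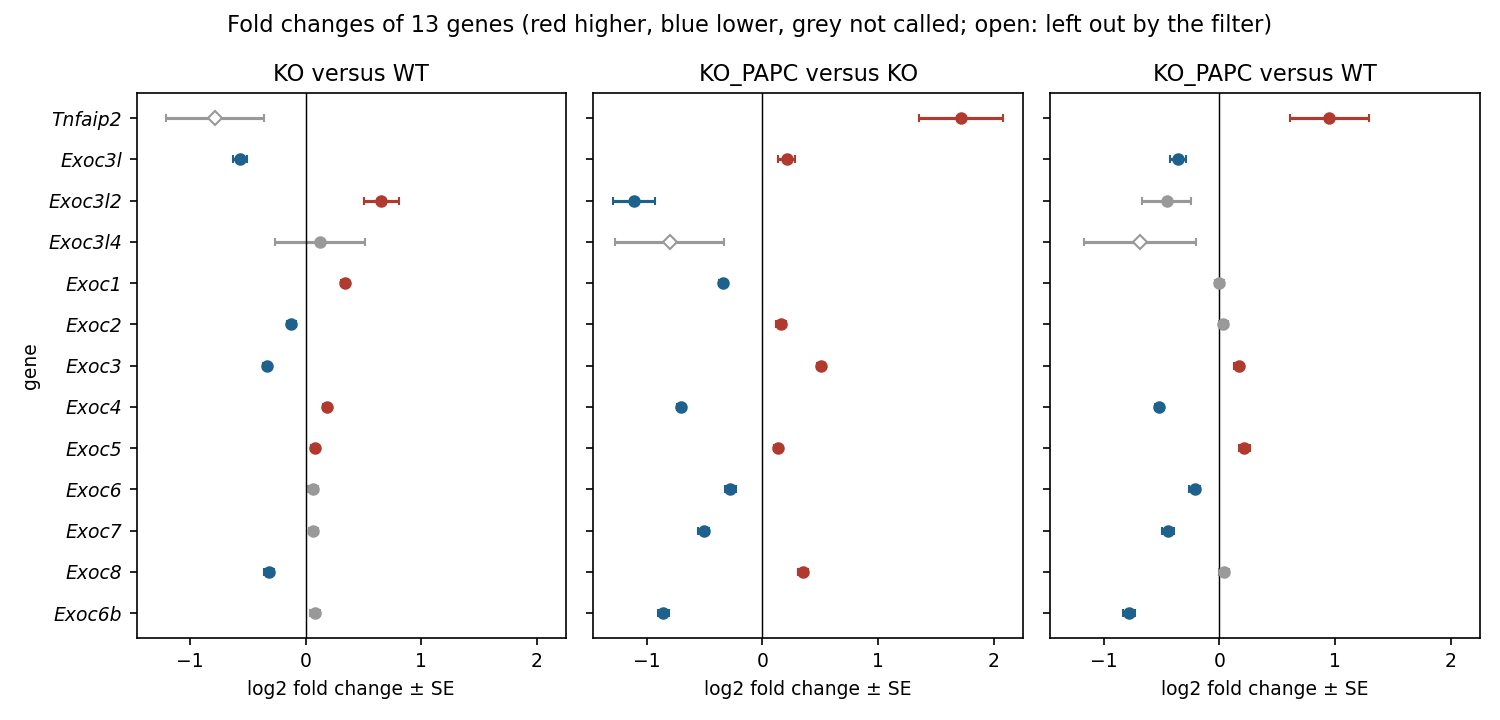
Log2 fold change with SE of each gene in the 3 comparisons, fitted by edgeR on 6 libraries each. Red points were called higher, blue lower and grey not called, and open diamonds are genes that the filter left out, taken from a fit without it. *Exoc3* and *Exoc8* lie to the left in KO against WT and to the right in KO_PAPC against KO, while *Exoc4*, *Exoc6b*, *Exoc7* and *Exoc6* lie to the left in both comparisons with KO_PAPC.

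*Tnfaip2* was barely transcribed in any group. The WT libraries held 16, 6 and 10 counts, the KO libraries 5, 6 and 8, and the KO_PAPC libraries 25, 14 and 16. The KO counts overlapped the lowest WT count, and the KO_PAPC counts lay above all KO counts. Its mean level was 0.367 ± 0.168 CPM (SD, n = 3) in WT libraries, 0.212 ± 0.0487 in KO libraries and 0.719 ± 0.224 in KO_PAPC libraries. Its counts were too few for a test of KO against WT. With the filter on low counts lifted, its log2 fold change there was -0.78 ± 0.424 (SE, edgeR adjusted p = 0.14), with a 95% interval from -1.61 to 0.047. Between KO_PAPC and KO, *Tnfaip2* was 3.3-fold higher, or 1.72 ± 0.363 on the log2 scale (edgeR adjusted p = 5.49e-05), and it was called in each of 13 alternative fits (other size factors, filters, DESeq2, a joint fit, a replicate block and each library left out), with adjusted p from 2.92e-05 to 0.00418. Against WT the log2 fold change of KO_PAPC was 0.95 ± 0.343 (edgeR adjusted p = 0.0164), called in 10 of 13 alternative fits, with adjusted p from 0.00432 to 0.131. It lost the call in DESeq2 (adjusted p = 0.106), without WT replicate 2 (0.101) and without KO_PAPC replicate 1 (0.131). In both comparisons with KO_PAPC, *Tnfaip2* passed the filter on low counts only through the KO_PAPC libraries, where it was higher. Its calls there are therefore not independent of the filter. With the filter lifted it was still called against KO (edgeR adjusted p = 3.39e-05). A frameshift need not lower a transcript, so these counts do not check the KO labels. Of the exon bases of *Tnfaip2*, 6.3% are shared with *Gm40578* on the opposite strand. The authors describe leaving out reads over more than 1 gene, which would drop reads there if counting ignored strand. Their methods give a stranded mode for the planarian counts and refer to that analysis for KO and KO_PAPC.

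Of the Exoc3-like genes, *Exoc3l2* was higher in KO than in WT, *Exoc3l* was lower, and *Exoc3l4* was near the detection floor. *Exoc3l2*, a gene known from endothelial cells, had 45, 42 and 56 counts in WT libraries, 80, 74 and 76 in KO libraries and 35, 20 and 37 in KO_PAPC libraries. Every KO library lay above every WT library and every KO_PAPC library below both. Its mean was 1.65 ± 0.271 CPM (SD, n = 3) in WT libraries, 2.56 ± 0.093 in KO libraries and 1.2 ± 0.356 in KO_PAPC libraries. It rose 1.57-fold in KO (log2 fold change 0.66 ± 0.153, edgeR adjusted p = 2.88e-04) and was called in each of 13 alternative fits, with adjusted p from 1.59e-04 to 0.012. In KO_PAPC it fell by 1.11 ± 0.184 on the log2 scale from KO (edgeR adjusted p = 1.19e-06). Against WT the value was -0.46 ± 0.212 (edgeR adjusted p = 0.0581), which 6 of 13 alternative fits called, those without WT replicate 2, KO_PAPC replicate 1 or KO_PAPC replicate 3 among them (adjusted p over the fits from 0.0114 to 0.336).

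Of the relatives of *Tnfaip2*, *Exoc3*, *Exoc3l*, *Exoc3l2* and *Exoc3l4*, only *Exoc3l2* was called higher in KO than in WT. It stayed a minor transcript there: per kilobase of merged exons its level in KO was 0.639 CPM, against 8.08 for *Exoc3* and 2.93 for *Exoc3l*. Endothelial markers moved in the same directions. In WT most of their level was *Esam* (mean 10.2 CPM) and *Tek* (5.74), while *Cdh5* and *Tie1* were at 0.345 and 0.344. The sum of *Cdh5*, *Kdr*, *Tie1*, *Tek* and *Esam* was 17.5 to 20.4 CPM in WT libraries, 26.7 to 28 in KO libraries and 5.36 to 6.36 in KO_PAPC libraries, with 4 of 5 called higher in KO than in WT, 5 of 5 lower in KO_PAPC than in KO and 1 (*Cdh5*) at 0 in 1 KO_PAPC library, and their part in the change of *Exoc3l2* was not tested. Of the trophoblast markers some moved in the directions of *Exoc3l2* and others did not. The sum of *Cdx2*, *Elf5*, *Krt7*, *Tfap2c* and *Gata3* was 55.5 to 56.4 CPM in WT libraries, 283 to 290 in KO libraries and 32.3 to 35.2 in KO_PAPC libraries, nearly all of it *Tfap2c*. Of 4 tested, 2 rose from WT to KO, and from KO to KO_PAPC 3 fell and 1 rose (*Cdx2*, at mean levels of 0.715, 0.478 and 1.82 CPM in WT, KO and KO_PAPC). *Elf5*, 1 of the 5, was at 3 counts or fewer over the KO_PAPC libraries, and the part of these markers was not tested. Macrophages are known for high *Tnfaip2*, but of 5 macrophage genes *Adgre1*, *Ptprc* and *Tyrobp* had 3 counts or fewer over the libraries of each group. The summed level of the 5 was 12.5 to 14.8 CPM in WT, 16.1 to 17.0 in KO and 7.91 to 8.23 in KO_PAPC, nearly all of it *Cd68*.

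*Exoc3l* was the most abundant Exoc3-like gene. It had 460, 474 and 477 counts in WT libraries, 331, 306 and 334 in KO libraries and 301, 347 and 324 in KO_PAPC libraries. All KO and KO_PAPC libraries lay below WT. The log2 fold change was -0.57 ± 0.0629 in KO against WT (edgeR adjusted p = 7.9e-10) and -0.36 ± 0.068 in KO_PAPC against WT (edgeR adjusted p = 4.75e-05). Between KO_PAPC and KO it was 0.21 ± 0.0729 (edgeR adjusted p = 0.00878), a call that 10 of 13 alternative fits kept. The exceptions were scaling by library totals (log2 fold change 0.044, adjusted p = 0.582), DESeq2 (adjusted p = 0.0753) and the fit without KO_PAPC replicate 2 (adjusted p = 0.0638). *Exoc3l4*, the neighbour of *Tnfaip2*, had 8, 7 and 11 counts in WT libraries, 13, 10 and 6 in KO libraries and 5, 5 and 4 in KO_PAPC libraries. It did not pass the test in KO against WT (log2 fold change 0.13 ± 0.391, edgeR adjusted p = 0.778, 95% interval -0.638 to 0.893) and was left out by the filter in both comparisons with KO_PAPC. A difference the size of that of *Exoc3l2* lies inside this interval, so these counts do not exclude it. Exon bases shared with a gene on the opposite strand made up 14.4% of *Exoc3l* (*Gm20163*), 15.7% of *Exoc3l4* (*Gm10425*), 6.71% of *Exoc7* (*Gm26730*) and 2.94% of *Exoc5* (*Ap5m1*). Reads there would likewise be left out if counting ignored strand.

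**Figure D2:**
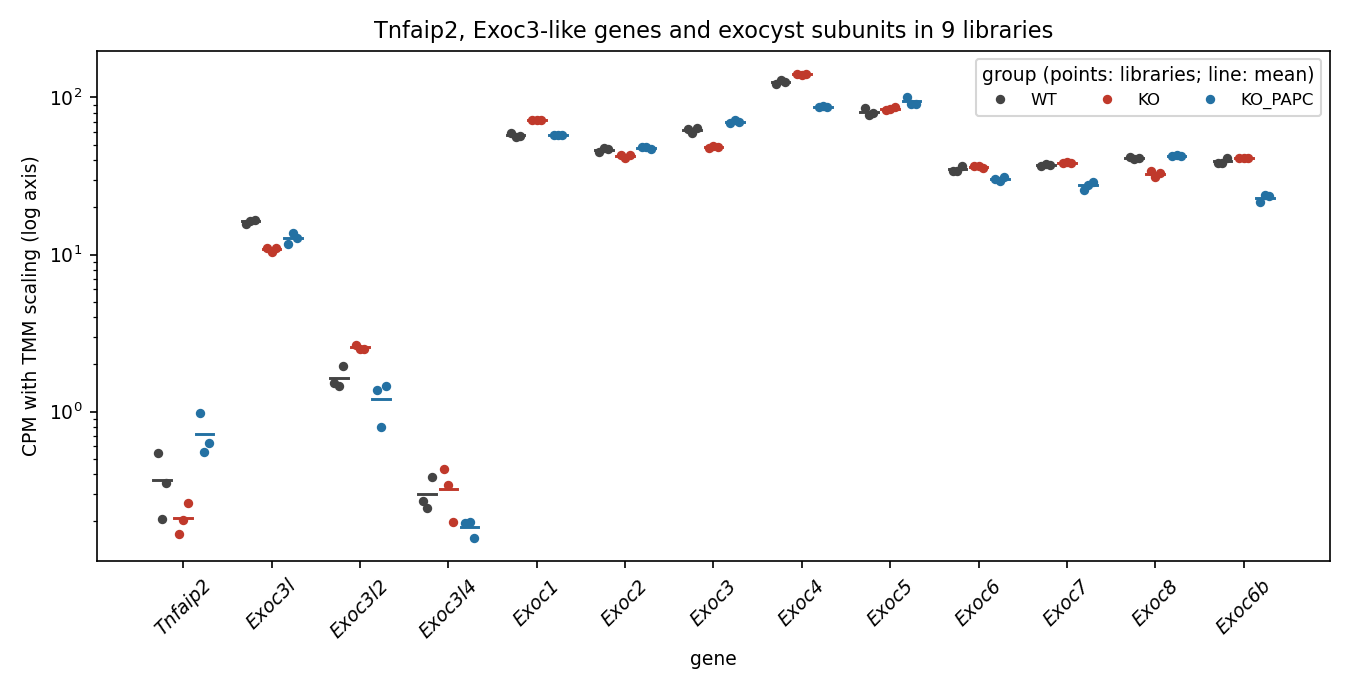
Level of each gene in each library, as CPM with TMM size factors on a log axis, for WT (grey), KO (red) and KO_PAPC (blue). Points are libraries and lines are means of 3. *Tnfaip2* and *Exoc3l4* sit below 1 CPM in all 9 libraries, *Exoc3l2* is highest in KO and *Exoc6b* is lowest in KO_PAPC.

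*Exoc3*, the subunit to which *Tnfaip2* is related and which is known to contact SNARE proteins, was lower in KO and higher in KO_PAPC. Its CPM was 62.5, 59.7 and 63.6 in the WT libraries, 47.9, 49.3 and 48.2 in KO and 68.7, 71.9 and 69.4 in KO_PAPC. The groups did not overlap. The log2 fold change was -0.34 ± 0.0365 in KO against WT (edgeR adjusted p = 5.00e-10) and 0.51 ± 0.0374 in KO_PAPC against KO (edgeR adjusted p = 6.30e-15). Both comparisons used the same KO libraries, so they are not independent of each other. Against WT, KO_PAPC differed by 0.17 ± 0.0384 (edgeR adjusted p = 4.07e-04), and scaling by library totals reduced this to 0.003 (adjusted p = 0.949), the only alternative of 13 without the call.

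In the module of *Exoc1* to *Exoc4*, 2 genes were higher and 2 lower in KO than in WT. *Exoc1*, whose protein binds phosphoinositides of the plasma membrane, was at 59, 55.6 and 57.2 CPM in WT libraries, 72.2, 71.8 and 71.5 in KO libraries and 57.4, 57.7 and 57.5 in KO_PAPC libraries. The KO libraries stood above all others, and WT and KO_PAPC overlapped. Its log2 fold change was 0.34 ± 0.0342 in KO against WT (edgeR adjusted p = 6.87e-11) and -0.34 ± 0.0355 in KO_PAPC against KO (edgeR adjusted p = 5.40e-11). In KO_PAPC against WT it was -0.002 ± 0.039, with a 95% interval from -0.078 to 0.074 (edgeR adjusted p = 0.966), and -0.167 under scaling by library totals (adjusted p = 4.62e-04).

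*Exoc4*, which had the most counts of the 13 genes in WT and KO, was at 122, 129 and 125 CPM in WT libraries, 140, 140 and 141 in KO libraries and 86.7, 88.2 and 87.3 in KO_PAPC libraries. KO lay above WT and KO_PAPC below both. It rose by 0.18 ± 0.0279 in KO (edgeR adjusted p = 5.44e-07), fell by 0.71 ± 0.0304 on the log2 scale from KO to KO_PAPC (edgeR adjusted p = 6.78e-22) and was 0.53 lower in KO_PAPC than in WT (log2 fold change -0.53 ± 0.0334, edgeR adjusted p = 5.1e-13). All 13 alternative fits of each of these comparisons called it.

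*Exoc2*, a Ral effector, changed least in this module between KO and either other group. Its mean was 46.5 ± 1.52 CPM (SD, n = 3) for the WT libraries, 42.1 ± 1.11 for KO and 47.9 ± 1.06 for KO_PAPC. The log2 fold change was -0.12 ± 0.0396 in KO against WT (edgeR adjusted p = 0.00589) and 0.16 ± 0.0414 in KO_PAPC against KO (edgeR adjusted p = 6.62e-04). The latter turned to -0.007 under scaling by library totals (adjusted p = 0.886). Against WT, KO_PAPC differed by 0.034 ± 0.0415 (edgeR adjusted p = 0.471), or -0.131 by library totals (adjusted p = 0.00726).

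In the module of *Exoc5* to *Exoc8*, *Exoc7* and *Exoc8* moved most between KO and KO_PAPC. *Exoc8*, the other Ral effector of the complex, was at 41.7, 40.6 and 41.1 CPM in WT libraries, 33.8, 31.3 and 33 in KO libraries and 42.1, 43.2 and 42.1 in KO_PAPC libraries. All KO libraries lay below the others. The log2 fold change was -0.31 ± 0.0423 in KO against WT (edgeR adjusted p = 5.37e-08), 0.35 ± 0.0444 in KO_PAPC against KO (edgeR adjusted p = 5.36e-09) and 0.037 ± 0.0418 in KO_PAPC against WT (edgeR adjusted p = 0.435), where scaling by library totals turned it to -0.128 (adjusted p = 0.0085). *Exoc2* and *Exoc8*, the Ral effectors, were thus both called lower in KO than in WT. Both were called higher in KO_PAPC than in KO, with the exception of *Exoc2* under scaling by library totals. *Exoc3* (log2 fold changes -0.34 and 0.51) and *Exoc3l* (-0.57 and 0.21) had the same calls. Of all tested genes, 37.1% were called lower in KO than in WT and 39.6% higher in KO_PAPC than in KO.

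*Exoc7*, which like *Exoc1* anchors the complex to membrane lipids, was at 36.8, 37.7 and 37.1 CPM in WT libraries, 38.5, 38.6 and 38.4 in KO libraries and 25.7, 27.7 and 29.1 in KO_PAPC libraries. It was lower in every KO_PAPC library than in any other. The log2 fold change was -0.51 ± 0.0479 against KO (edgeR adjusted p = 4.67e-12) and -0.44 ± 0.0493 against WT (edgeR adjusted p = 1.61e-08). In KO against WT its log2 fold change of 0.067 ± 0.0403 did not pass the test (edgeR adjusted p = 0.131), although the KO libraries all lay above WT. *Exoc1* and *Exoc7*, which anchor the complex to lipids, were both called lower in KO_PAPC than in KO. So were 6 of the 12 tested genes and 42.2% of all tested genes. They differed against WT, where *Exoc1* was not called in KO_PAPC (log2 fold change -0.002).

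*Exoc6*, a Rab11 effector, and its partner *Exoc5* differed in direction in KO_PAPC. *Exoc6* went from 36.1 ± 0.587 CPM (SD, n = 3) in KO to 30.2 ± 0.901 in KO_PAPC, or -0.28 ± 0.0459 on the log2 scale (edgeR adjusted p = 1.13e-06), and *Exoc5* from 84.5 ± 2.04 to 94.3 ± 5.79, or 0.13 ± 0.0372 on the log2 scale (edgeR adjusted p = 0.00128). The *Exoc5* value turned to -0.032 under scaling by library totals (adjusted p = 0.433). In KO against WT *Exoc6* did not pass the test (log2 fold change 0.065 ± 0.043, edgeR adjusted p = 0.171). *Exoc5* passed with 0.084 ± 0.0354 (edgeR adjusted p = 0.0335), though its groups overlapped and 8 of 13 alternative fits did not call it, among them DESeq2, the fit without the filter and the fits without KO replicate 2 or 3 or WT replicate 2 or 3 (adjusted p over the fits from 4.74e-04 to 0.256). Against WT, KO_PAPC was 0.22 ± 0.0449 higher for *Exoc5* on the log2 scale (edgeR adjusted p = 1.43e-04, lost under scaling by library totals) and 0.22 ± 0.0481 lower for *Exoc6* (log2 fold change -0.22, edgeR adjusted p = 3.20e-04).

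*Exoc6b* showed the deepest fall of the exocyst genes proper in KO_PAPC. The gene is a second copy of the *Exoc6* gene, and its protein is thought to take the same place in the complex. It was at 38.2, 38.3 and 41.4 CPM in WT libraries, 41.2, 41.3 and 41 in KO libraries and 21.6, 24.1 and 23.4 in KO_PAPC libraries. No KO_PAPC library reached any other. The log2 fold change was -0.86 ± 0.0483 against KO (edgeR adjusted p = 2.10e-18) and -0.78 ± 0.0519 against WT (edgeR adjusted p = 1.26e-12), called in all 13 alternative fits of each. In KO against WT it was 0.083 ± 0.0412 (edgeR adjusted p = 0.0677), called in 1 of 13 alternative fits, that without WT replicate 3 (adjusted p = 0.0293).

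*Exoc6b* fell further than *Exoc6*, and its share of both genes was lower in KO_PAPC. From reads per kilobase of merged exons, *Exoc6b* made up 20.8%, 20.9% and 20.9% of *Exoc6* plus *Exoc6b* in WT libraries, 20.9%, 21% and 21.3% in KO libraries and 14.3%, 16.1% and 15% in KO_PAPC libraries. This share does not depend on the scaling of libraries. The mean difference was -5.93 percentage points between KO_PAPC and KO and -5.72 between KO_PAPC and WT. In an exact two-sided permutation test over libraries both had p = 0.1, the smallest that 3 libraries against 3 allow, and KO against WT differed by 0.211 points (exact permutation p = 0.2). With the longest annotated transcript as the length the shares were higher, 42.3% ± 0.13 (SD, n = 3) in WT libraries, 42.6% ± 0.323 in KO libraries and 33.2% ± 1.61 in KO_PAPC libraries, so the size of the share rests on the annotation.

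The summed level of the 8 subunits, counted per kilobase of merged exons, was close in WT and KO. Scaled by library totals, in CPM per kilobase, it was 65.8 ± 0.611 (SD, n = 3) in WT libraries, 65 ± 0.314 in KO libraries and 54.8 ± 0.199 in KO_PAPC libraries, with all 3 KO_PAPC libraries below the rest (exact two-sided permutation p = 0.1 against either group, the smallest possible, and 0.2 between KO and WT). With TMM size factors the sums were 63.4 ± 0.584, 62 ± 0.288 and 59.5 ± 0.256, so most of the distance of KO_PAPC went with the scaling, although the groups still did not overlap (exact permutation p = 0.1 for each pair).

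**Figure D3:**
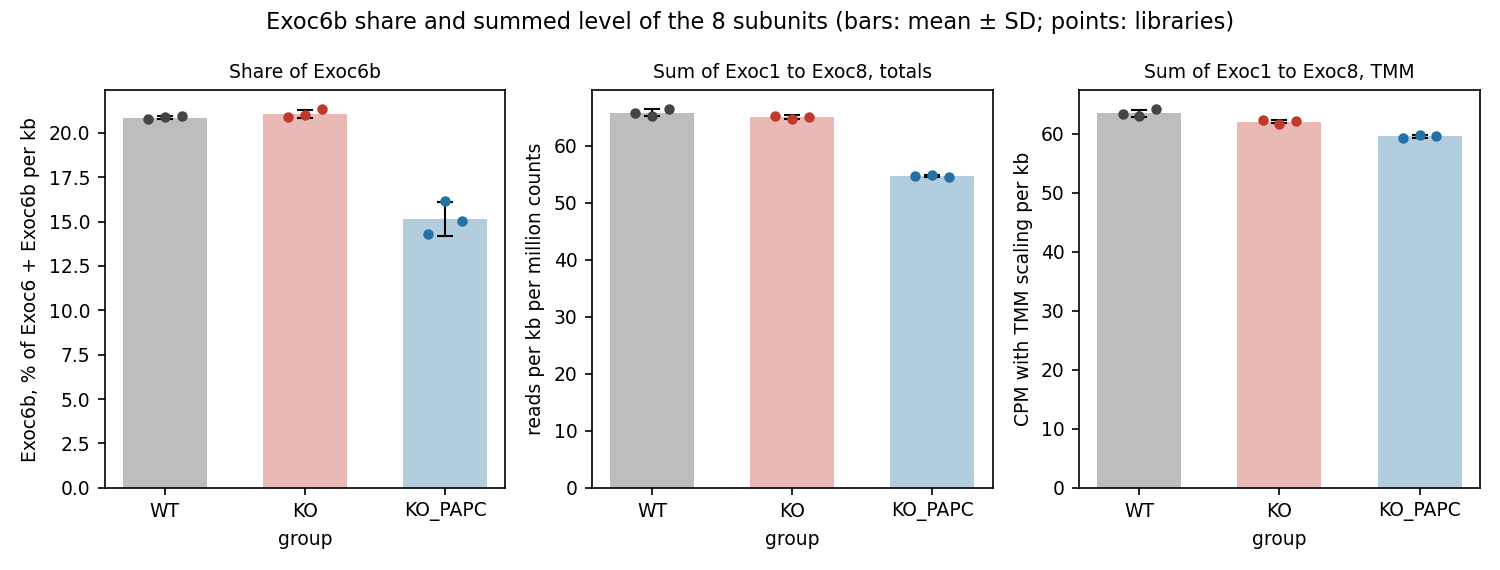
Share of *Exoc6b* in *Exoc6* plus *Exoc6b* in percent (left), and the summed level of *Exoc1* to *Exoc8* per kilobase of merged exons, as CPM by library totals (middle) and with TMM size factors (right). Bars are means of 3 libraries with SD and points are libraries. The share is 14.3% to 16.1% in KO_PAPC and 20.8% to 21.3% elsewhere, and the sum in KO_PAPC is 54.6 to 55 by totals and 59.3 to 59.8 by TMM.

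Levels per kilobase of merged exons ordered the genes into well and poorly transcribed ones. In WT *Exoc3* (10.3 CPM per kilobase), *Exoc4* (9.89) and *Exoc6* (9.85) were highest, and their libraries overlapped. *Exoc8* (8.95), *Exoc7* (8.52) and *Exoc2* (6.67) followed, each apart from the next. *Exoc1* (4.76), *Exoc5* (4.49) and *Exoc3l* (4.4) overlapped with their neighbours in this order, *Exoc6b* (2.6) stood below them, and *Exoc3l2* (0.41), *Tnfaip2* (0.0736) and *Exoc3l4* (0.0531) came last, the last 2 overlapping. In KO the order began with *Exoc4* (11.1), *Exoc6* (10.2) and *Exoc7* (8.82), and *Exoc3* held rank 4 (8.08). In KO_PAPC *Exoc3* (11.7) was again first, followed by *Exoc8* (9.24), *Exoc6* (8.53) and *Exoc4* (6.92), the last of which overlapped with *Exoc2* (6.87).

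The balance between subunits thus shifted with the groups. Of the sum over the 8 subunits, *Exoc3* made up 16.3% ± 0.413 (SD, n = 3) in WT libraries, 13% ± 0.249 in KO libraries and 19.6% ± 0.396 in KO_PAPC libraries. *Exoc4* took 15.6% ± 0.538, 17.9% ± 0.0969 and 11.6% ± 0.0505 in the same order. The highest of the 8 subunits stood 2.3-fold above the lowest in WT libraries, 2.36-fold in KO libraries and 2.44-fold in KO_PAPC libraries, but 4.08-fold, 4.37-fold and 2.44-fold with the longest transcript as the length. These ranks use the merged length of all annotated exons. With the longest transcript *Exoc4* was first in all groups, at 25.9 CPM per kilobase in WT, and *Exoc3* had rank 3 in WT, 5 in KO and 2 in KO_PAPC among the 8 subunits.

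The counts of calls in the related lists below stand beside the shares over all tested genes. In KO against WT 36.8% were called higher and 37.1% lower. From KO to KO_PAPC these were 39.6% and 42.2%, and in KO_PAPC against WT 34.2% and 36.4%. Ral GTPases and their regulators, which act on the exocyst, moved in both directions. Of 12 genes, all tested, 7 were called higher and 4 lower in KO than in WT (median log2 fold change 0.105), 5 higher and 5 lower in KO_PAPC than in KO (median -0.06), and 5 higher and 4 lower in KO_PAPC than in WT (median -0.045). Under scaling by library totals the last 2 counts became 4 and 7, and 2 and 7. *Ralgds*, an exchange factor that activates Ral, had means of 42.4 ± 1.79 CPM (SD, n = 3) for WT, 85 ± 2.19 for KO and 39.5 ± 0.181 for KO_PAPC, and *Rgl3*, of the same family, of 5.67 ± 0.174, 1.89 ± 0.257 and 6.88 ± 0.277. They moved in opposite directions, by 1.02 and -1.56 on the log2 scale in KO against WT (edgeR adjusted p = 8.17e-23 and 1.65e-13). *Ralgapa1*, a subunit of the complex that inactivates Ral, rose by 0.70 ± 0.045 on the log2 scale from KO to KO_PAPC (edgeR adjusted p = 1.11e-16).

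Of 16 Rab and polarity GTPase genes, all tested, 6 were called higher and 8 lower in KO than in WT, 9 higher and 4 lower in KO_PAPC than in KO (9 and 7 under scaling by library totals), and 11 higher and 4 lower in KO_PAPC than in WT, the last becoming 2 and 4 under that scaling. *Rab3il1*, an exchange factor for Rab8, was at 14.1 ± 1.02 CPM in WT libraries, 36.4 ± 1.42 in KO libraries and 8.59 ± 1.17 in KO_PAPC libraries (SD, n = 3). *Rab11fip5*, an adaptor of Rab11, was at 20.1 ± 0.28, 28.7 ± 1.2 and 7.53 ± 0.363. *Rab11fip5* was called lower in KO_PAPC than in KO (log2 fold change -1.95 ± 0.066, edgeR adjusted p = 3.34e-25), while *Rab11b* rose by 0.87 ± 0.0531 on that scale (edgeR adjusted p = 2.91e-17). The other Rab11 adaptors of the list moved in both directions from KO to KO_PAPC. Means went from 15.8 to 9.69 CPM for *Rab11fip2* and from 108 to 107 for *Rab11fip4*. They went from 48.9 to 59.1 for *Rab11fip1* and from 31.2 to 45.5 for *Rab11fip3*.

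Of 15 SNARE fusion genes, 4 were called higher and 9 lower in KO than in WT (median log2 fold change -0.213), 5 higher and 4 lower in KO_PAPC than in KO (2 and 9 under scaling by library totals), and 5 higher and 8 lower in KO_PAPC than in WT (2 and 10 under that scaling). *Vamp8*, a vesicle SNARE, was lower than in WT in both, by log2 fold changes of -0.51 ± 0.0417 in KO and -0.92 ± 0.0474 in KO_PAPC (edgeR adjusted p = 4.63e-13 and 8.53e-15). *Vamp3*, another vesicle SNARE, was at 132 ± 2.3 CPM (SD, n = 3) in WT libraries, 105 ± 1.82 in KO libraries and 155 ± 1.3 in KO_PAPC libraries, lowest in KO and highest in KO_PAPC like *Exoc3*.

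Genes of tunnelling nanotubes were examined because M-Sec induces these bridges. Of 12 genes, 5 of which also stand in the Ral or Rab lists, 5 were called higher and 4 lower in KO than in WT, 7 higher and 4 lower in KO_PAPC than in KO (5 and 5 under scaling by library totals), and 8 higher and 2 lower in KO_PAPC than in WT (3 and 4 under that scaling). *Fscn1*, which bundles actin in cell protrusions, was at 305 ± 16.6 CPM in WT libraries, 332 ± 12.3 in KO libraries and 516 ± 21.7 in KO_PAPC libraries (SD, n = 3), and differed by 0.75 ± 0.0337 on the log2 scale between KO_PAPC and WT (edgeR adjusted p = 5.85e-16). *Eps8*, an actin regulator, rose by 0.46 ± 0.0451 on the log2 scale in KO (edgeR adjusted p = 5.00e-11). From KO to KO_PAPC it fell by 1.02 ± 0.0506 (edgeR adjusted p = 5.08e-20).

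*Tnfaip2* rose in KO_PAPC while most other NF-κB targets and TNF receptor genes were lower there. Of 19 such genes, 15 were tested in each comparison, and 6 were called higher and 5 lower in KO than in WT. In KO_PAPC against KO 3 were called higher and 10 lower (median log2 fold change -0.662, beside -0.017 over all genes), and in KO_PAPC against WT 1 higher and 14 lower (median -0.387), of which DESeq2 called 1 and 8. *Traf1*, an adaptor of TNF receptors, was at 2.53 ± 0.572 CPM (SD, n = 3) in WT libraries, 5.96 ± 0.399 in KO libraries and 0.523 ± 0.145 in KO_PAPC libraries. *Tnfrsf1a*, the main TNF receptor, was at 10.8 ± 0.241, 9.77 ± 0.0441 and 4.57 ± 0.602, and *Icam1*, an adhesion molecule, at 26.7 ± 1.91, 35.4 ± 1.1 and 19 ± 0.318. All 3 fell from KO to KO_PAPC, with log2 fold changes of -3.52, -1.12 and -0.92 (edgeR adjusted p = 6.72e-20, 2.48e-13 and 1.25e-18). *Rela*, a subunit of NF-κB, was at 45.9 ± 0.582, 28 ± 0.37 and 41.7 ± 1.44 in the order WT, KO and KO_PAPC.

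Promoters were searched for the κB consensus on both strands, in windows of 250 bases before to 50 after each start in the RefSeq annotation (GRCm38.p6). Of the 13 genes, 12 had promoters in that table, 17 in all. A match was held by 2 of the 17 (11.8%), beside 5.8% of 32851 promoters of all genes. The matches are shown in capitals with 10 bases on either side, because one lies in *Tnfaip2* and the other in *Exoc3l2*, the Exoc3-like gene raised in KO. That of *Tnfaip2*, at chr12:111442637-111442646, reads as the consensus on the opposite strand and lies upstream of the RefSeq start and within the first exon of a GENCODE transcript, and that of *Exoc3l2*, at chr7:19463192-19463201, lies upstream of the start in both annotations. Both are printed on the plus strand, which is the strand of both genes.
Tnfaip2 promoter: gactattttaGGAGGGCCCCtccagggtcg
Exoc3l2 promoter: gacagataatGGGGCCTTCCagcccctggc

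The genes that hold these matches moved in opposite directions in KO_PAPC against KO, *Tnfaip2* by 1.72 and *Exoc3l2* by -1.11 on the log2 scale. The promoters of *Exoc3l2* and *Exoc3l4* held 5 and 4 CpG dinucleotides, near the median of 7 over all promoters, where the promoter of *Tnfaip2* held 23 and those of the subunits and *Exoc6b* 13 to 39, a second *Exoc2* promoter with 0 aside.

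Other tethering complexes related to the exocyst in fold also moved in both directions. Of 8 COG genes, which act at the Golgi, 2 were called higher and 1 lower in KO than in WT, and 2 higher and 4 lower in KO_PAPC than in KO (0 and 6 under scaling by library totals). Of 5 GARP and EARP genes, which tether endosomal vesicles, 2 were higher and 2 lower, and then 3 higher and 2 lower (1 and 2 under that scaling). Of 4 Dsl1 genes, which act at the endoplasmic reticulum, 1 was higher and 2 lower, and then 2 higher and 1 lower (2 and 2). *Cog1* fell by 1.13 ± 0.0463 on the log2 scale and *Vps53* by 0.98 ± 0.0397 from KO to KO_PAPC, and *Use1* rose by 1.19 ± 0.038 (edgeR adjusted p = 1.59e-22, 8.64e-23 and 5.68e-26).

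**Figure D4:**
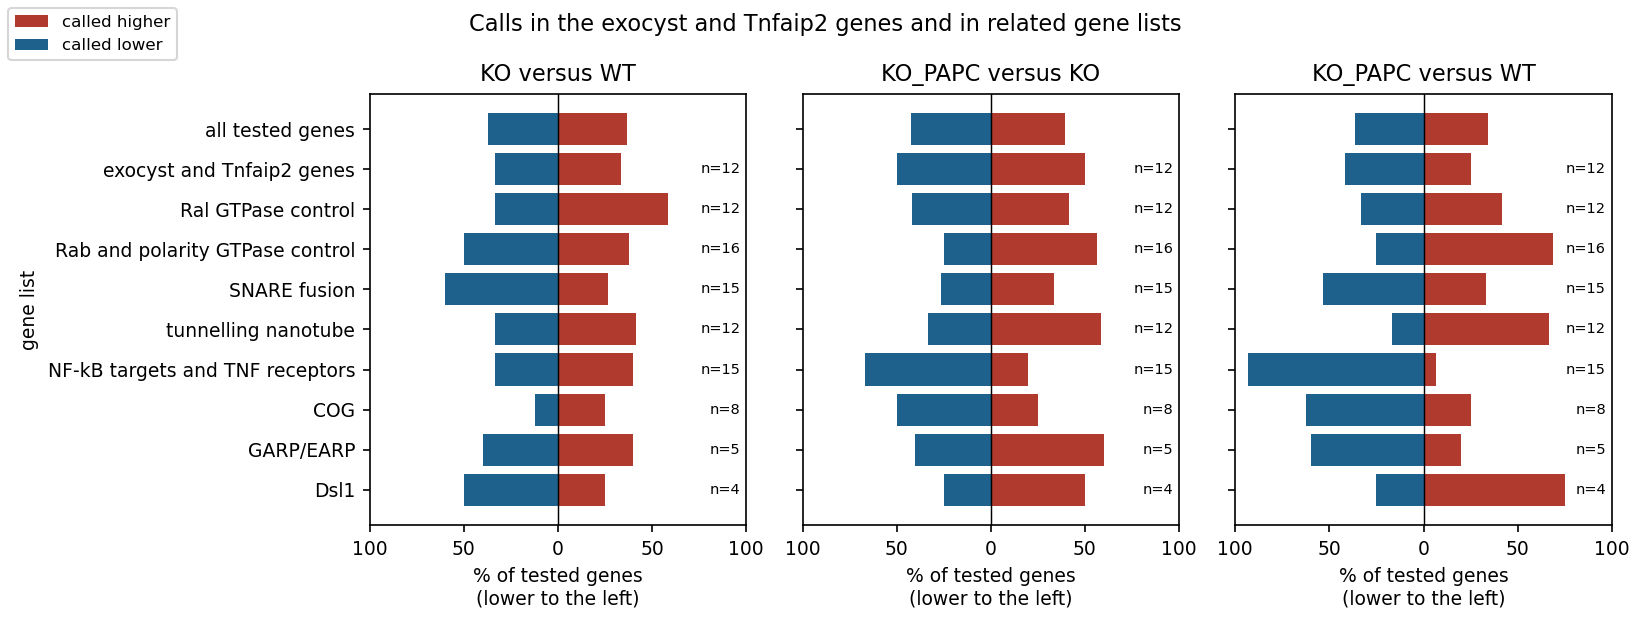
Share of tested genes called higher (red, to the right) and lower (blue, to the left) in each comparison, for all tested genes, the exocyst and *Tnfaip2* genes and 8 related lists, with the number of genes tested beside the bars of each list. For the exocyst and *Tnfaip2* genes both bars are of equal length in KO against WT and in KO_PAPC against KO, and the NF-κB list has 14 of 15 genes lower in KO_PAPC than in WT.

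Of the 2 nearest protein-coding genes on either side of *Tnfaip2* on chromosome 12, *Gm266* and *Eif5* were called lower in KO than in WT. So were 37.1% of all tested genes. Both were called higher in KO_PAPC than in KO. *Gm266* and the other 2 had few counts. On one side lies *Exoc3l4*, 10791 bases away on the same strand, and beyond it *Lbhd2*, which had 3 counts or fewer in every library. On the other side lies *Gm266*, 29591 bases away on the opposite strand, which had 21, 32 and 17 counts in WT libraries, 5, 5 and 8 in KO libraries and 28, 16 and 12 in KO_PAPC libraries. Its log2 fold change was -1.97 ± 0.354 in KO against WT (edgeR adjusted p = 8.32e-06) and 1.82 ± 0.384 in KO_PAPC against KO (edgeR adjusted p = 5.34e-05). *Eif5*, a translation factor 82998 bases away, was at 380 ± 9.02 CPM (SD, n = 3) in WT libraries, 355 ± 10.2 in KO libraries and 552 ± 20.1 in KO_PAPC libraries, with log2 fold changes of -0.078 ± 0.0242 in KO against WT (edgeR adjusted p = 0.00432, lost without KO replicate 1) and 0.61 ± 0.0274 in KO_PAPC against KO (edgeR adjusted p = 1.97e-21). *Tnfaip2*, *Gm266* and *Eif5* were thus called higher in KO_PAPC than in KO, as were 39.6% of all tested genes. *Gm266* rests on 5 to 28 counts per library there and, like *Tnfaip2*, passed the filter on low counts only through KO_PAPC. *Exoc3l4* had too few counts for that test.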

How the data were processed

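The libraries were unstranded single-end RNA-seq of 51 cycles. The authors deposited read counts per Ensembl gene, whole numbers and not normalized. Per the labels the processing named bcl2fastq 2.20.0.422, STAR 2.7.2b, featureCounts 1.6.5 and GRCm38 for all 9 libraries. The study's methods describe TopHat2 for the analysis of KO with WT and STAR for that of KO with KO_PAPC, so it is not clear from them how the WT columns were made, and whether a difference between WT and the others includes this was not tested. Multi-mapping reads and reads over more than 1 gene were excluded by the authors. Every column of sample values was used (0 left out).

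Symbols, positions and lengths were joined from GENCODE M21 (241 of 55471 IDs had no match). The quasi-likelihood test of edgeR 4.0.16 (R 4.3.3) was fitted to the counts of the 6 libraries of each comparison, with TMM size factors, filterByExpr and Benjamini-Hochberg adjustment over all tested genes. Calls used an adjusted p under 0.05. The test was checked on simulated data. SE were derived from the F statistic. Single values were compared by exact permutation of libraries. Alternatives were DESeq2 1.42.0, RLE size factors, library totals, 2 other filters, a joint fit, the replicate number as a block, a minimum fold change of 1.5 and each library left out. Total counts were 27362913 to 28914312 per library, and all replicate pairs differed beyond sampling noise. Same-numbered replicates deviated together with correlations of -0.0384 to 0.0477, so the numbers were not taken as pairs.

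All 13 genes are named. From each related list up to 3 called genes per comparison with the largest change and at least 5 CPM in a group could be named, and the 2 nearest protein-coding genes on each side of *Tnfaip2*. The other Rab11 adaptors of the Rab list are given beside *Rab11fip5*. The 13 genes and the lists were chosen with earlier results of these data known.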

Additional observations from a re-analysis of the deposited data

How the results depend on the processing

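Of 501 refitted values of single genes among the 13, 443 kept their direction and their side of the threshold, 39 lost the call, 8 gained it and 11 changed sign. The tested minimum fold change of 1.5 left 0, 4 and 1 of the 13 genes called in KO against WT, KO_PAPC against KO and KO_PAPC against WT. The medians of the genes were -0.238 (KO_PAPC versus KO) and -0.274 (KO_PAPC versus WT) under library totals, -0.255 and -0.201 without the filter, where a 13th gene enters, and -0.273 and -0.198 in DESeq2. Leaving out 1 library moved the median in KO_PAPC versus KO between -0.091 and -0.043, the latter without KO_PAPC replicate 2. The *Exoc6b* share differed by -10.04 points without a length and -9.45 with the longest transcript (KO_PAPC versus KO), and by -9.73 and -9.14 (KO_PAPC versus WT). The log2 ratio of the summed subunits was 0.045, 0.044 and -0.033 in KO versus WT without a length, with the longest transcript and with TMM. It was -0.30, -0.35 and -0.058 in KO_PAPC versus KO, and -0.31 (longest transcript) and -0.092 (TMM) in KO_PAPC versus WT. Signs changed under library totals for *Exoc2* (-0.007) and *Exoc5* (-0.032) in KO_PAPC versus KO, and for *Exoc2* (-0.131) and *Exoc8* (-0.128) in KO_PAPC versus WT. *Exoc1* in KO_PAPC versus WT, near 0, became 0.008 with RLE, 0.013 without the filter, 0.016 in DESeq2 and 0.006 in the joint fit, and lay between -0.024 and 0.024 with 1 library left out. With 1 library left out, *Exoc3l4* in KO versus WT lay between -0.004 (without WT replicate 2) and 0.387, and *Gm266* in KO_PAPC versus WT between -0.55 and 0.154 (above 0 without WT replicate 2 or KO_PAPC replicate 3). The replicate block gave 7, 12 and 9 called genes. It lost *Exoc5* in KO versus WT (adjusted p = 0.0583), gained *Exoc3l2* in KO_PAPC versus WT (0.0374) and changed no other call among the 13. In KO_PAPC versus WT, DESeq2 called 5 of the Ral list in place of 9, 9 of the NF-κB list in place of 15 and 4 of the COG list in place of 7. Library totals gave 6 of the Rab list in place of 15, 2 of Dsl1 in place of 4 and, in KO_PAPC versus KO, 3 of GARP and EARP in place of 5. The cause was not tested for any of these beyond what the scaling, the length or the filter itself changes. At 4 to 25 counts, *Tnfaip2* and *Exoc3l4* are limited by depth.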
